A study of Caenorhabditis elegans with 16 samples.

Results

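A set of 3 miRNAs of the nervous system of Caenorhabditis elegans was followed in whole embryos: miR-124-3p of sensory neurons, lsy-6-3p of a single left taste neuron and miR-228-5p of glia. These mature strands (cel-mir-124-3p, cel-lsy-6-3p and cel-mir-228-5p) were picked by name, for the cells that make them, and are 3 of 366 miRNA strands with at least 1 molecule in any of 16 libraries. Relative to the other miRNAs, none of the 3 passed an adjusted p of 0.05 against wild type in any of 7 mutant strains of the miR-51 family. miR-124-3p stood at 0.559 to 0.963 of its wild-type level, and miR-228-5p at 0.663 to 1.40 of it. lsy-6-3p gave only 121 molecules in all libraries together, and in every strain its 95% interval reached down to 0.573 of wild type or less and up to 1.67 of it or more. The less abundant strands of the mir-124 and mir-228 hairpins, miR-124-5p and miR-228-3p, were both called lower in the strain labelled miR-51null, from 7 to 14 molecules per library, and neither call held under most alternative settings. The adjustment behind these calls also covered the strands of the miR-51 family itself, and an adjustment without them was not run.

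A miRNA is cut from a hairpin as a duplex, of which 1 strand, the guide, is kept by an Argonaute protein and pairs with target mRNAs, while the other strand is mostly degraded. miR-124 is conserved between worms and mammals. In C. elegans it is made mainly in ciliated sensory neurons, and in mice it is abundant in most neurons, where it represses transcripts of non-neuronal cells. lsy-6 is made in the left cell of the ASE pair of taste neurons, where it represses the transcription factor gene cog-1 and so lets the left cell take on its own set of chemoreceptors. The promoter of mir-228 is active in glia, the sheath and socket cells that wrap sensory endings among them, and is widely used to mark these cells.

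mir-124 (WBGene00003319) is found at 11871738 to 11871833 of chromosome IV, plus strand (WBcel235, Ensembl release 115). Its 5p strand is annotated from 11871755 to 11871777 and its 3p strand from 11871798 to 11871818. The hairpin sits in an intron of trpa-1, a TRP channel gene, on the same strand, and an exon of the noncoding RNA gene C29E6.8 overlaps it on the opposite strand. lsy-6 (WBGene00003088) is at 10647232 to 10647304 of chromosome V, also plus strand, with the 5p strand from 10647237 to 10647257 and the 3p strand from 10647280 to 10647301. It is intergenic, with 88 bases to C32C4.3, which is on the opposite strand, and 256 bases to C32C4.16. mir-228 (WBGene00003321) is at 5562025 to 5562122 of chromosome IV, again plus strand, with the 5p strand from 5562040 to 5562062 and the 3p strand from 5562082 to 5562103. It is also intergenic, with 3204 bases to ari-2 and 4897 bases to T12E12.6.

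Small RNAs were sequenced from 8 strains with 2 libraries each, every library from 50 whole embryos at the comma stage, from strains grown at 20 °C without treatment. N2 is the wild type. miR-51null (strain MLC1800) lacks all 6 members of the family through the deletions nDf67 and n4100 on chromosome IV and nDf58 on chromosome X, and is kept alive with lucEx1057, an extrachromosomal array that carries the miR-54 cluster. Whether the embryos collected had lost this array is not given in the sources used here. miR-54C (MLC2290) carries nDf67 and n4100 and keeps the miR-54 cluster on chromosome X, miR-54+55 (MLC2394) lacks mir-56 as well through luc177, and miR-54 (MLC2393) lacks mir-55 and mir-56 as well through luc180. The other 3 strains carry nDf67 and nDf58 with the mir-52 hairpin replaced at its own locus. It was replaced by the mir-51 hairpin in miR-52to51 (MLC1997, luc143), by a mir-57 hairpin with the seed of miR-51 in miR52to57seed (MLC1918, luc141), and by the mir-53 hairpin in miR52to53 (MLC1917, luc140). Each replacement is 1 allele. Every strain had its own 3′ adapter barcode, so barcode and genotype cannot be told apart. The study calls the duplicates independent without saying whether they came from separate cultures, and p-values measure the spread between these libraries.

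The libraries held 18481 to 844718 miRNA molecules, counted as unique molecular identifiers (UMIs), with a median of 103072. The most shallow was replicate 1 of miR52to53 and the deepest replicate 1 of N2. miR-51 to miR-56 took 27.8% and 31.8% of UMIs in N2 and 1.54% and 1.09% in miR-51null. In miR52to57seed, which also lacks these miRNAs and for which no array is listed, they took 0.161% and 0.178%. Levels are given as UMIs per 1000000 UMIs of the strands outside miR-51 to miR-57, after scaling by trimmed means, and are written below as CPM. They compare each strand with the other miRNAs and cannot show a change that all miRNAs share. The markers of other tissues were present in every library: the muscle strand miR-1-3p at 5713 to 19493 CPM, the intestinal miR-60-3p at 5404 to 11149, and the epidermal miR-79-3p at 17054 to 31304. None of these 3 was called in any strain. The 8 strands miR-35-3p to miR-42-3p, which mark the embryo, summed to 323046 to 648726 CPM, and none was called in any strain.

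Of the strands outside miR-51 to miR-57, 148 had at least 10 UMIs in at least 2 libraries and were tested, the 3 neuronal and glial strands among them. By the quasi-likelihood test of edgeR, adjusted over all strands after Benjamini and Hochberg, the share called at an adjusted p under 0.05 was 5.41% in miR-51null, 0% in miR-54C, 0.676% in miR-54+55, 6.08% in miR-54, 4.73% in miR-52to51, 0.676% in miR52to57seed and 1.35% in miR52to53. This adjustment covered all 162 strands fitted, those of miR-51 to miR-57 included. Low p-values of deleted strands can lower the adjusted p of the others. These shares can therefore exceed those of an adjustment over the 148 alone, which was not run. Against this background, 0 of the 21 comparisons of miR-124-3p, lsy-6-3p and miR-228-5p with N2 were called, 1 had an unadjusted p under 0.05, and DESeq2 called 0 of the 18 for which it gave an adjusted p. For miR-54C, where edgeR called 0 strands outside miR-51 to miR-57, 10 of these strands had an unadjusted p under 0.05 and DESeq2 called 2. In 10 of the 21 comparisons (47.6%) both mutant libraries lay on 1 side of both N2 libraries. The same held for 50.2% of the comparisons over all 148 strands, so a strain that stands clear of N2 in these libraries is common.

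miR-124-3p was a strand of middle abundance, at ranks 32 to 39 from the top within a library, with 10177 UMIs in all and between 74 and 4153 per library. Its level was 6968 and 5012 CPM in the N2 libraries, 5395 and 3053 in miR-51null, and 5669 and 3099 in miR-54C. It was 5185 and 3948 in miR-54+55, 2848 and 3863 in miR-54, and 4103 and 3436 in miR-52to51. It was 6228 and 4023 in miR52to57seed and 4064 and 7305 in miR52to53. The libraries of miR-54 and miR-52to51 lay below both N2 libraries, and those of the other 5 strains overlapped them. Levels counted in bulk embryos cannot tell fewer neurons from less miRNA per neuron.

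N2 had the highest strain mean of miR-124-3p, 5990 ± 1383 CPM (SD, n = 2), and miR-54 the lowest, 3355 ± 717. Between them the order was miR52to53, miR52to57seed, miR-54+55, miR-54C, miR-51null and miR-52to51, and no neighbours in this order had libraries that stood apart. The log2 fold change was below 0 in all 7 strains, which share the same 2 N2 libraries, and ran from −0.84 to −0.05 with a median of −0.45. Of the marker strands tested, miR-1-3p (median −0.37) and miR-38-3p (median −0.46) were also below 0 in all 7, and the rest were not. The share over all strands was not counted. The largest change of miR-124-3p was that of miR-54, −0.84 with an SE of 0.37 and a 95% interval of −1.62 to −0.06 (adjusted p = 0.215, edgeR's quasi-likelihood test). It was −0.49 (adjusted p = 0.793) without replicate 1 of N2, the highest wild-type library, and −0.55 (adjusted p = 0.754) without replicate 1 of miR-54. In the same strain lin-4-5p, a miRNA of larval stages, was called higher by 2.41 on the log2 scale (adjusted p = 0.0299). In miR52to53 lin-4-5p was 2.48 above N2 (adjusted p = 0.0531) while miR-124-3p was at −0.05. lin-4-5p and miR-124-3p stood at 2.18 and −0.67 in miR-52to51, 2.04 and −0.50 in miR-51null, and 1.40 and −0.39 in miR-54+55. They were at −0.24 and −0.45 in miR-54C and at −3.12 and −0.23 in miR52to57seed. The part of lin-4-5p in the level of miR-124-3p was not tested. In miR-51null the log2 fold change of miR-124-3p was −0.50 with an interval of −1.28 to 0.28 (adjusted p = 0.497), so a level between 0.411 and 1.21 of wild type is compatible with these libraries.

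**Figure D1:**
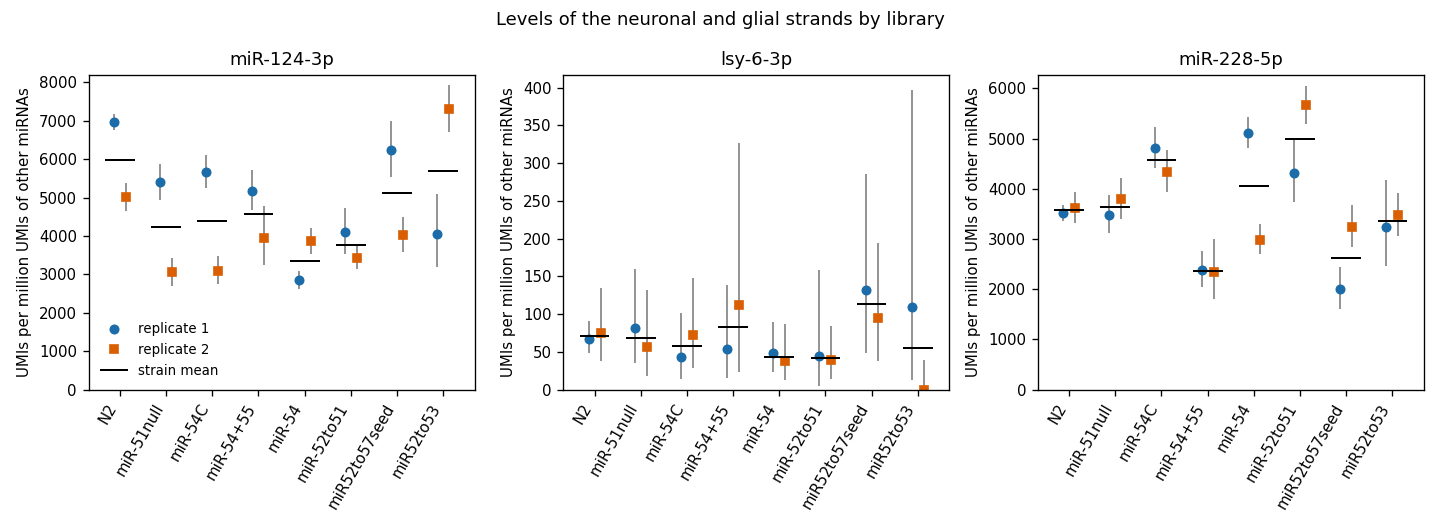
Level of each strand in each of 16 libraries, in CPM (UMIs scaled to 1000000 UMIs of the other miRNAs) on linear axes from 0, with replicate 1 as circles, replicate 2 as squares, strain means as black lines and exact 95% Poisson intervals (for the library at 0, the limit of 3 UMIs), which cover counting error only, as grey bars. miR-124-3p lies between 2848 and 7305 and miR-228-5p between 1996 and 5662, while the bars of lsy-6-3p overlap in nearly all libraries and 1 library is at 0.

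miR-228-5p was as abundant, at ranks 32 to 41, with 7705 UMIs in all and between 59 and 2095 per library. Its level was 3515 and 3624 CPM in N2, 3482 and 3788 in miR-51null, and 4812 and 4341 in miR-54C. It was 2384 and 2346 in miR-54+55, 5118 and 2987 in miR-54, and 4323 and 5662 in miR-52to51. It was 1996 and 3243 in miR52to57seed and 3240 and 3471 in miR52to53. The wild-type libraries lay close together in the middle of the range, with miR-54C and miR-52to51 above both and miR-54+55, miR52to57seed and miR52to53 below both.

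The order of the strain means of miR-228-5p ran from miR-52to51 (4993 ± 947 CPM, SD, n = 2) through miR-54C, miR-54, miR-51null, N2, miR52to53 and miR52to57seed to miR-54+55 (2365 ± 26.6). N2 and miR52to53 were the only neighbours in this order whose libraries did not overlap. Strain means spanned 2.11-fold, against 1.79-fold for miR-124-3p. The log2 fold change was 0.03 in miR-51null, with an SE of 0.28 and an interval of −0.56 to 0.62 (adjusted p = 0.969), which corresponds to 0.676 to 1.53 of wild type. The changes farthest from 0 were −0.59 in miR-54+55 (interval −1.20 to 0.02, adjusted p = 0.430) and 0.49 in miR-52to51 (interval −0.10 to 1.08, adjusted p = 0.319). With only miR-54+55 and N2 in the fit, the first of these was −0.62 and was called (adjusted p = 0.0409). That fit called 5 strands outside miR-51 to miR-57, against 1 in the fit of all strains, and its share of strands tested was not counted. Of the 21 such comparisons of the 3 strands, this was the only 1 called.

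Over all 8 strains together, edgeR's quasi-likelihood F test called 2.70% of strands as different among strains. miR-228-5p had a p of 0.0252 and an adjusted p of 0.157, rank 26 of the 162 strands in the fit, those of miR-51 to miR-57 included. DESeq2's test of the same question gave an adjusted p of 0.0141, and the share of all strands that it called was not counted. Without replicate 1 or replicate 2 of miR-54, whose libraries differed most in this strand, the adjusted p in edgeR was 0.0327 or 0.0353, and over all libraries left out in turn it ran from 0.0327 to 0.327. The embryonic strands miR-35-3p to miR-42-3p summed to 606099 and 648726 CPM in the libraries of miR-54+55, where miR-228-5p was lowest, and to 370098 and 486934 in miR-52to51, where it was highest, against 529326 and 554830 in N2. The sum ran from 529410 to 536843 in miR-51null, 440736 to 504789 in miR-54C and 402705 to 472619 in miR-54. It ran from 565562 to 592829 in miR52to57seed and 323046 to 534290 in miR52to53, and miR-228-5p lay below N2 in both of these strains. These 8 strands are themselves among the UMIs to which all levels are scaled. Their part in the level of miR-228-5p was not tested. The same F test gave adjusted p-values of 0.533 for miR-124-3p and 0.652 for lsy-6-3p.

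lsy-6-3p was detected in 15 of 16 libraries at ranks 97 to 145, with a median of 5.50 UMIs per library. It was counted 40 and 11 times in N2, 8 and 5 times in miR-51null, and 5 and 7 times in miR-54C. It was counted 4 and 3 times in miR-54+55, 10 and 5 times in miR-54, and 2 and 6 times in miR-52to51. It was counted 6 and 7 times in miR52to57seed, and 2 and 0 times in miR52to53. The library at 0 allows a level of up to 38.9 CPM (3 UMIs), against 67.1 CPM (95% Poisson interval 47.9 to 91.4) and 75.2 CPM (37.5 to 135) in N2, the second of which reaches below that limit. The limit and the intervals cover counting error only.

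Scaled for depth, lsy-6-3p was 81.0 and 56.5 CPM in miR-51null against 67.1 and 75.2 in N2, and the log2 fold change was −0.02 with an interval of −1.47 to 1.42 (adjusted p = 0.996, edgeR's quasi-likelihood test). Levels between 0.362 and 2.68 of wild type are inside that interval, and smaller changes were not detectable at this depth. miR52to57seed had the highest strain mean, 113 ± 26.4 CPM (SD, n = 2), and both its libraries (132 and 94.2) lay above N2, with a log2 fold change of 0.64 (interval −0.80 to 2.09, adjusted p = 0.733). The libraries of miR-54 (48.6 and 37.4 CPM) and of miR-52to51 (44.1 and 38.8) lay below N2, with log2 fold changes of −0.67 and −0.79 (adjusted p = 0.538 and 0.675). In order, the strain means fell from miR52to57seed through miR-54+55, N2, miR-51null, miR-54C, miR52to53 and miR-54 to miR-52to51, and the libraries of all neighbours overlapped. The lowest fitted value, −1.54 in miR52to53 (interval −3.97 to 0.88, adjusted p = 0.417), rested on the library without a UMI. Without that library, replicate 2, the log2 fold change was 0.64 (adjusted p = 0.736). Without replicate 1 the remaining library holds 0 UMIs, the strand was called lower (adjusted p = 0.0307), and the size of the change has no meaning beyond the limit given above. The other strand, lsy-6-5p, had 4 UMIs in all, 1 in each of 4 libraries, and was too rare to test.

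**Figure D2:**
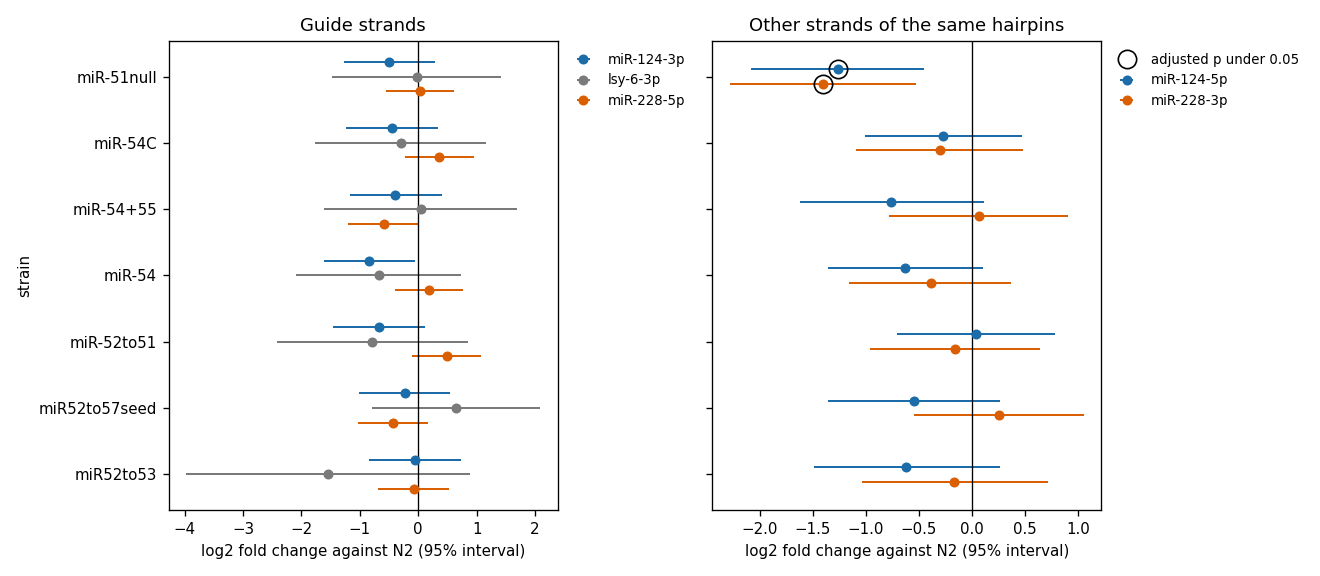
Log2 fold change of each mutant strain against N2 for the 3 guide strands (left) and for the less abundant strands miR-124-5p and miR-228-3p (right), with 95% intervals from edgeR's quasi-likelihood fit and with different axis ranges in the panels. None of the 21 points on the left has an adjusted p under 0.05, while the circled points on the right, −1.26 and −1.40 in miR-51null, do.

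Other neuronal strands were not called either. miR-2-3p, which is found in many neurons, and miR-234-3p were tested in all 7 strains and were called in none, and miR-791-3p, of carbon dioxide-sensing neurons, had at most 7 UMIs in a library and was too rare to test. Together these 3 strands, of which miR-2-3p made up nearly all, summed to 26980 and 27212 CPM in N2, and to 18434 to 31167 over all libraries. The log2 fold change of miR-2-3p ran from −0.34 to 0.02. miR-234-3p was rare, at 68.8 and 41.0 CPM in N2 (41 and 6 UMIs), and its log2 fold change ran from −2.39 in miR52to53 (0 and 1 UMIs) to 0.93 in miR-51null and miR-52to51. It was at 0 UMIs in 3 mutant libraries, and miR-791-3p in 6. Of the larval strands, lin-4-5p was called in miR-54 and let-7-5p in no strain. Both libraries of lin-4-5p also lay above N2 in 4 further strains, with log2 fold changes of 2.48 in miR52to53, 2.18 in miR-52to51, 2.04 in miR-51null and 1.40 in miR-54+55 (adjusted p = 0.0531, 0.0517, 0.0740 and 0.507, edgeR's quasi-likelihood test). It had 0 UMIs in replicate 1 of miR52to57seed.

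The ratio of the neuronal to the glial strand within a library needs no scaling between libraries. There were 1.98 and 1.38 miR-124-3p per miR-228-5p in N2, 1.68 ± 0.424 (SD, n = 2) on average. The mean ratio was 1.18 ± 0.525 in miR-51null, 0.946 ± 0.328 in miR-54C, 1.92 ± 0.350 in miR-54+55 and 0.925 ± 0.521 in miR-54. It was 0.778 ± 0.242 in miR-52to51, 2.17 ± 1.32 in miR52to57seed and 1.68 ± 0.601 in miR52to53. The libraries of miR-54C, miR-54 and miR-52to51 lay below both N2 libraries, yet a comparison of 2 libraries with 2 cannot give a two-sided exact permutation p below 1 in 3. Over all ways of putting the 16 libraries in 8 pairs, the duplicates of a strain were not detectably closer in this ratio than other pairings (one-sided exact permutation p = 0.259, adjusted over 4 ratios 0.517). The ratio of miR-124-3p to lsy-6-3p had a median of 63.3 and ran from 29.8 to 1129, the last in the library without an lsy-6-3p UMI, with 0.5 UMI added to both counts (exact permutation p = 0.965, adjusted p = 0.965).

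**Figure D3:**
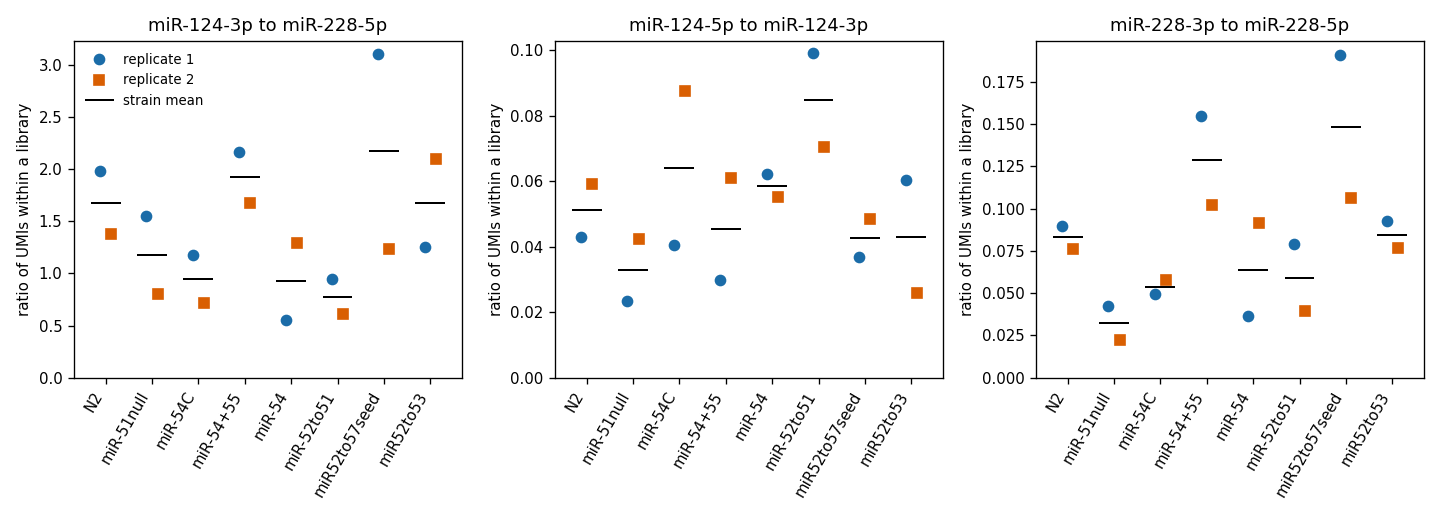
Ratio of UMIs within each library for miR-124-3p to miR-228-5p and for the less abundant to the more abundant strand of the mir-124 and mir-228 hairpins, on linear axes from 0, with replicate 1 as circles, replicate 2 as squares and strain means as lines. In the right panel the miR-51null libraries (0.0421 and 0.0224) lie below those of N2 (0.0900 and 0.0763).

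Both hairpins kept a marked bias to their guide strand in all strains. miR-124-5p had 474 UMIs in all, and its ratio to miR-124-3p had a median of 0.0517 and ran from 0.0234 to 0.0992. miR-228-3p had 523 UMIs, and its ratio to miR-228-5p had a median of 0.0776 and ran from 0.0224 to 0.191.

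In miR-51null these less abundant strands were lower than in N2. miR-124-5p was at 299 and 294 CPM in N2 (178 and 43 UMIs) and at 121 and 124 in miR-51null (12 and 11 UMIs). The log2 fold change was −1.26 with an SE of 0.38 and an interval of −2.08 to −0.45 (adjusted p = 0.0387, edgeR's quasi-likelihood test). miR-228-3p was at 315 and 273 CPM in N2 (188 and 40 UMIs) and at 142 and 79.2 in miR-51null (14 and 7 UMIs). Its log2 fold change was −1.40 with an SE of 0.41 and an interval of −2.28 to −0.53 (adjusted p = 0.0313). For each strand both miR-51null libraries lay below all 14 others, of which the lowest were at 148 CPM for miR-124-5p and 185 for miR-228-3p. Neither call held in DESeq2 (adjusted p = 0.0978 and 0.0551), without the filter on low counts (0.166 and 0.0851), with reads in place of UMIs (0.154 and 0.0629) or with only the 2 strains in the fit (0.0898 and 0.0908). That of miR-124-5p was also lost without any 1 of the 4 libraries (adjusted p from 0.108 to 0.264). That of miR-228-3p was lost without replicate 1 of N2 (0.264), replicate 2 of N2 (0.133) or replicate 2 of miR-51null (0.179), and kept without replicate 1 of miR-51null (0.0294). The log2 fold changes themselves stayed between −1.28 and −1.13 and between −1.89 and −1.06 when a library was left out. Both calls rest on an adjustment over all 162 strands fitted, those of miR-51 to miR-57 included. An adjustment over only the 148 strands outside them was not run.

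In the other 6 strains neither strand was called, with log2 fold changes of −0.76 to 0.04 for miR-124-5p and −0.39 to 0.25 for miR-228-3p. Whether the change in miR-51null differs from those was not tested by contrast. The F test over all strains gave an adjusted p of 0.248 for each of the strands. The ratio of miR-228-3p to miR-228-5p was 0.0831 ± 0.00962 (SD, n = 2) in N2 and 0.0322 ± 0.0140 in miR-51null, and over all strains the exact permutation test over pairings gave p = 0.05, adjusted 0.200. The ratio of miR-124-5p to miR-124-3p was 0.0511 ± 0.0115 in N2 and 0.0330 ± 0.0135 in miR-51null (exact permutation p over all strains = 0.416, adjusted 0.555).

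Less abundant strands of many other hairpins were also lower relative to their partners in miR-51null, a comparison made after the values were seen. Of 49 hairpins outside the family with both strands tested, the less abundant strand changed by −0.76 relative to the more abundant one for mir-124 and by −1.43 for mir-228, on the log2 scale. For the 47 other hairpins the median was −0.44, and 35 of them were below 0, so mir-124 took rank 16 and mir-228 rank 5 from the lowest of the 49. In this strain 5 less abundant strands and 0 more abundant strands of the 49 hairpins were called, all 5 lower. In the other 6 strains the median over the 47 hairpins ran from −0.34 to 0.03, and mir-124 and mir-228 stood at −0.56 to 0.71 and −0.66 to 0.69. The filter of 10 UMIs in at least 2 libraries could be passed through the 2 N2 libraries alone, of which replicate 1 was the deepest library of all. Such a filter favours rare strands that are high in N2, and its part in these medians was not tested.

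**Figure D4:**
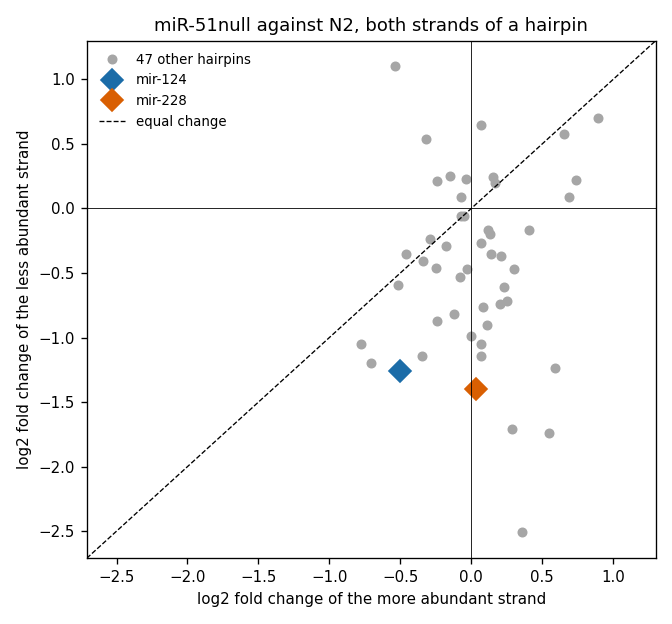
Log2 fold change in miR-51null against N2 of the less abundant strand (vertical axis) and the more abundant strand (horizontal axis) of 49 hairpins outside the family, with mir-124 and mir-228 as diamonds and a dashed line of equal change. Both diamonds lie under the line, at −1.26 and −1.40 on the vertical axis, among 35 of 47 other hairpins that also lie under it.

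The correlations among the 3 strands were weak or negative. Over the 16 libraries the Pearson correlation of log2 levels was −0.40 between miR-124-3p and miR-228-5p, −0.25 between miR-124-3p and lsy-6-3p and −0.35 between lsy-6-3p and miR-228-5p. The Spearman correlations were −0.36, 0.07 and −0.49 in the same order, so the sign for miR-124-3p and lsy-6-3p depends on the measure. These and the following correlations describe libraries that share a scaling and come in pairs of a strain, and they carry no test. Among 147 other strands, those most like miR-124-3p were miR-58a-3p (r = 0.76), miR-79-3p (0.71) and miR-46-3p (0.65). Those most like miR-228-5p were miR-80-3p (0.73), miR-50-5p (0.64) and miR-86-5p (0.64). For lsy-6-3p the nearest were miR-239a-3p (0.63), miR-253-3p (0.54) and miR-72-3p (0.50), of which miR-239a-3p had a median of 3 UMIs per library. The median correlation with all 147 strands was −0.00, −0.05 and −0.02 for miR-124-3p, miR-228-5p and lsy-6-3p. The biological coefficient of variation fitted by edgeR was 27.5% for miR-124-3p, 22.6% for lsy-6-3p and 21.2% for miR-228-5p. Its median over all strands was 24.9%. edgeR draws these values toward a common one, 25.6%, so they are not the observed spread. Duplicates differed by a median of 0.553 on the log2 scale for miR-124-3p and 0.135 for miR-228-5p. No such value is given for lsy-6-3p, which had a library at 0 UMIs.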

How the data were processed

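Total RNA of 50 embryos per library was made into small RNA libraries with UMIs. Per the labels the build was WBcel235; the authors assigned reads to miRNA strands with their own pipeline, and the aligner and miRNA annotation are not given in the sources used here. The values analysed are deposited estimated counts without normalization, in which UMIs (or reads) that match several strands are divided among them, and 7.15% of values are not whole. A further deposited column is a count of UMIs in full; it equalled the divided value for all 48 values of the 3 strands. Strands not listed in a library were taken as 0. Spike-in amounts, and further columns (GM and PM) that the sources used here do not define, were not used here.

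Estimated counts were rounded. The 162 strands that reached 10 UMIs in 2 or more libraries (148 of them outside miR-51 to miR-57) were fitted with edgeR 4.0.16 in R 4.3.3, with 16 libraries in 1 quasi-likelihood fit and strain as the only term. Library sizes were the sum of UMIs outside miR-51 to miR-57 (13861 to 604793) times TMM factors (0.860 to 1.31). The Benjamini-Hochberg adjustment ran over these 162 strands, those of the deleted miRNAs among them, and the call was an adjusted p under 0.05. Ratios had 0.5 UMI added to both counts. The fit was also run on counts simulated from its own fitted levels and spread, without the filter. Such a run cannot show how well the model suits these libraries. DESeq2 1.42.0 served as an alternative, and scipy 1.17.1, pandas 2.3.3 and numpy 2.4.6 under Python 3.11.15 gave the other values. Alternatives were library sizes without TMM, DESeq2, no filter, a minimum of 50 UMIs, reads, only the 2 strains compared, a replicate block, a pseudocount of 1 UMI, and each library left out in turn.

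The strands named are the 3 guides, their other strands, markers of neurons, muscle, intestine, epidermis, embryo and larva, and for each guide the 3 strands with the most similar levels. The strands and lists were chosen with earlier results of these data known. No sequences are shown, and strands of the same seed were not listed.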

Additional observations from a re-analysis of the deposited data

How the results depend on the processing

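Some log2 fold changes of the neuronal and glial strands reversed, none of them with an adjusted p under 0.05 before or after. With all libraries kept, these were values near 0. For miR-124-3p in miR52to53 (−0.05) the value was 0.07 without TMM, 0.01 with at least 50 UMIs, 0.01 with only the 2 strains and 0.01 with the replicate block. lsy-6-3p in miR-51null (−0.02) gave 0.02 in DESeq2, 0.13 with reads and 0.06 with only the 2 strains, and in miR-54+55 (0.04) it gave −0.09 without TMM, −0.06 without the filter, −0.22 with reads and −0.03 with only the 2 strains. miR-228-5p in miR52to53 (−0.08) gave 0.10 without TMM and 0.01 with at least 50 UMIs. miR-124-5p in miR-52to51 (0.04) gave −0.02 without the filter and −0.01 with only the 2 strains. miR-228-3p gave −0.08 without TMM and −0.05 without the filter in miR-54+55 (0.06), and 0.02 without TMM in miR-52to51 (−0.16). Calls changed for miR-228-5p: −0.62 in miR-54+55 with only the 2 strains in the fit (adjusted p = 0.0409), and an adjusted p of 0.0141 over all strains in DESeq2 against 0.157 in edgeR. In miR-51null the calls of miR-124-5p and miR-228-3p were lost in DESeq2 (−1.22 and −1.36), without the filter (−1.28 and −1.43), with reads (−1.19 and −1.37) and with only the 2 strains (−1.18 and −1.33). The cause was not tested for any of these.

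With each library left out in turn, miR-124-3p ran from −0.58 to 0.09 in miR52to57seed and from −0.56 to 0.30 in miR52to53. lsy-6-3p ran from −0.31 to 0.20 in miR-51null, −0.69 to 0.03 in miR-54C, −0.38 to 0.66 in miR-54+55 and −6.26 to 0.64 in miR52to53, where −1.54 with all libraries reversed to 0.64 without replicate 2, and −6.26 is a fit to 1 library with 0 UMIs and is no bound. miR-228-5p ran from −0.04 to 0.13 in miR-51null, −0.16 to 0.52 in miR-54 and −0.14 to 0.03 in miR52to53, and its adjusted p over all strains from 0.0327 to 0.327. miR-124-5p ran from −1.28 to −1.13 in miR-51null and −0.31 to 0.42 in miR-52to51. miR-228-3p ran from −1.89 to −1.06 in miR-51null, −0.40 to 0.30 in miR-54+55, −0.43 to 0.16 in miR-52to51 and −0.24 to 0.04 in miR52to53. A strain left with 1 library is assumed to vary like the others.

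Counts of strands called outside the family moved more. In miR-51null 8 became 5 in DESeq2, 3 with reads and 2 to 6 without a library. In miR-54C 0 became 2 in DESeq2, 1 without the filter and 2 with only the 2 strains. In miR-54+55 1 became 2 in DESeq2, 2 without the filter, 5 with only the 2 strains and 1 to 3 without a library. In miR-54 9 became 5 with reads, 1 with only the 2 strains and 1 to 14 without a library. In miR-52to51 7 became 11 without TMM, 11 in DESeq2, 17 without the filter, 11 with at least 50 UMIs, 12 with only the 2 strains and 1 to 9 without a library. In miR52to57seed 1 became 3 in DESeq2, 5 without the filter, 0 with at least 50 UMIs, 11 with only the 2 strains and 0 to 1 without a library. In miR52to53 2 became 7 in DESeq2, 5 without the filter, 4 with only the 2 strains, and 0 to 7 without a library. With the replicate block it became 4, and the block changed no call of the strands of mir-124, lsy-6 and mir-228. Deviations of same-numbered libraries correlated at −0.44 to 0.40 over 28 pairs of strains, with a median of 0.01 and 7 pairs over 0.1. No pairing common to all strains was seen, but batches shared by some strains cannot be judged from these values. Depth limits lsy-6-3p most, with an SE of 0.67 to 1.14 on the log2 scale. With at least 50 UMIs lsy-6-3p was not tested.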
